A study of Mus musculus with 24 samples.

Results

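MicroRNAs (miRNAs) that mark muscle, neurons, sensory cells, pancreas and pluripotent cells were followed in liver RNA of falling quality. The set was chosen by name: every mouse miRNA on the array named miR-1, miR-9, miR-96, miR-124, miR-129, miR-133, miR-137, miR-153, miR-182, miR-183, miR-206, miR-208, miR-216, miR-217, miR-290 to miR-295, miR-302, miR-367, miR-375 or miR-499, with any letter or arm. This gave 75 of the 1881 miRNAs, of which 18 belong to muscle, 13 to neurons, 6 to sensory cells, 10 to pancreas and 28 to pluripotent cells. The question put to them was whether degraded liver RNA gives array signals for miRNAs best known from other tissues. Whether liver makes some of them itself was not tested.

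Liver of 3 male mice (numbers 7, 9 and 10 in the labels; their strain is not given in the sources used here) was measured on 24 one-colour arrays, 3 in each of 8 groups, with every mouse in every group. In 4 groups total RNA with small RNAs was isolated with the miRNeasy kit, from tissue kept for 0 h or 96 h at room temperature, with or without DNase digestion. In the other 4 groups DNase-treated RNA depleted of small RNAs was isolated from 0 h tissue with the RNeasy kit. It was hybridized untreated, or after incubation with 0 U, 0.026 U or 0.67 U of RNase and a second isolation. The RNA integrity number (RIN), which falls as RNA breaks down, was 8.8 to 9.0 at 0 h, 2.3 to 2.5 at 96 h, 9.0 to 9.4 in depleted RNA without RNase, 6.0 to 7.0 at 0.026 U and 2.4 to 2.9 at 0.67 U. For mouse 9 the titles and the descriptions of the arrays at 0.026 U and 0.67 U name opposite doses, and the descriptions were followed. The 8 arrays of a mouse lay on 1 slide, so mouse and slide cannot be told apart. Values per array are given below in the order mouse 7, mouse 9, mouse 10, as background-subtracted intensity units, and the lowest signal flagged as detected ranged from 0.672 to 1.62 units between arrays. Values below 0 lie under the local background.

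A miRNA is cut from a hairpin precursor, and 1 of its arms (5p or 3p) usually enters the silencing complex while the other, the minor arm, is mostly lost. Main and minor arms were assigned here by miRNA number from general knowledge and were not measured. For miR-290 to miR-295 the 3p arm was taken as the main arm. Hairpins on the opposite strand were given the main arm of their number. Bases 2 to 8, the seed, choose the targets, so miRNAs with 1 seed form a family. miR-1, miR-133, miR-206, miR-208 and miR-499 are made in heart or skeletal muscle, miR-9, miR-124 and miR-137 in neural cells, the cluster of miR-183, miR-96 and miR-182 in sensory cells of the eye and ear, miR-216, miR-217 and miR-375 in pancreas, and the miR-290 to miR-295 cluster with miR-302 and miR-367 in early embryos and pluripotent stem cells. Several of the hairpins have a second annotated hairpin on the opposite strand of the same place (miR-129b opposite miR-129-2, miR-290b opposite miR-290a, miR-292b opposite miR-292a, miR-216c opposite miR-216b), whose products are near reverse complements of the first.

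The sequences below carry most of the signals described here. They are RefSeq mature sequences (build GRCm38.p6), written 5′ to 3′ with the seed in capitals. Of the 75 miRNAs, 62 were matched to such a sequence. The first set holds minor 5p arms of the miR-290 to miR-295 cluster, from chr7:3218639-3220800 on the plus strand, shown because most of them became detectable at 96 h.
miR-290a-5p: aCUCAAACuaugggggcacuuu
miR-292a-5p: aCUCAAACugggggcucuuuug
miR-293-5p: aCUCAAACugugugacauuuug
miR-294-5p: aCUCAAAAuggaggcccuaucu
miR-295-5p: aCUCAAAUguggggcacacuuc
miR-291a-5p: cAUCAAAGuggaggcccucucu
miR-291b-5p: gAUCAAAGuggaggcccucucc
The seed of miR-290a-5p, miR-292a-5p and miR-293-5p is the same, and miR-293-5p was detected on no array. miR-291a-5p and miR-291b-5p share a run of 20 bases, so their signals may come from the same RNA and are uncertain as separate measurements.

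The second set is transcribed from the minus strand of that cluster, from chr7:3218638-3218659 and chr7:3219198-3219218, and is shown against the plus-strand miRNAs it pairs with.
miR-290b-3p: aAGUGCCCccauaguuugagua
miR-292b-3p: aAGAGCCCccaguuugaguau
miR-290b-3p is complementary to miR-290a-5p over an unbroken 21 bases, and miR-292b-3p to miR-292a-5p over 19 bases. A similar pair lies on chromosome 2, where miR-129b-5p (chr2:94241378-94241399, plus strand) is complementary to miR-129-2-3p over 20 bases.
miR-129b-5p: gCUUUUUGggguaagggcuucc
miR-129-2-3p: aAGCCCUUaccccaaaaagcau

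The third set holds other members whose detection differed with storage or with DNase. miR-294-3p (chr7:3220691-3220712, plus strand) is the main arm of its hairpin in the same cluster. miR-291a-3p, miR-295-3p, miR-302b-3p and miR-302d-3p have the same seed and were detected on no array, and the first 2 are shown for comparison. miR-206-3p lies at chr1:20679055-20679076 on the plus strand, miR-208a-5p at chr14:54949107-54949128 and miR-375-5p at chr1:74900696-74900717 on the minus strand, miR-96-5p at chr6:30169506-30169528 on the minus strand, and miR-137-3p at chr3:118433901-118433923 on the plus strand.
miR-294-3p: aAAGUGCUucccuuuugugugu
miR-291a-3p: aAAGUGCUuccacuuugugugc
miR-295-3p: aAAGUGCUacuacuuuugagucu
miR-206-3p: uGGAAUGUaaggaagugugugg
miR-208a-5p: gAGCUUUUggcccggguuauac
miR-375-5p: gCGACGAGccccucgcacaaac
miR-96-5p: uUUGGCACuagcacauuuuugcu
miR-137-3p: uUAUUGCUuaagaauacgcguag

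Most of the 75 miRNAs were detected in no condition. On none of the 24 arrays were 53 of them detected, and the intensities of these 53 lay between -3.05 and 2.49 units with a median of -0.467. Over the whole array 1002 of 1881 miRNAs were detected on no array. Of the 75, 22 were detected at least once (29.3%, against 46.7% of all 1881), namely 5 of 18 in the muscle list, 4 of 13 in the neuron list, 2 of 6 in the sensory list, 1 of 10 in the pancreas list and 10 of 28 in the pluripotent list. The silent ones included every form of miR-1, the main muscle miRNA, miR-9 and miR-124, the main neural miRNAs, miR-216 and miR-217, which mark the exocrine pancreas, the main arm miR-375-3p of pancreatic islets, and all forms of miR-302 and miR-367. Detection was not confined to main arms, with 10 of 36 main arms and 12 of 38 minor arms detected at least once.

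**Figure D1:**
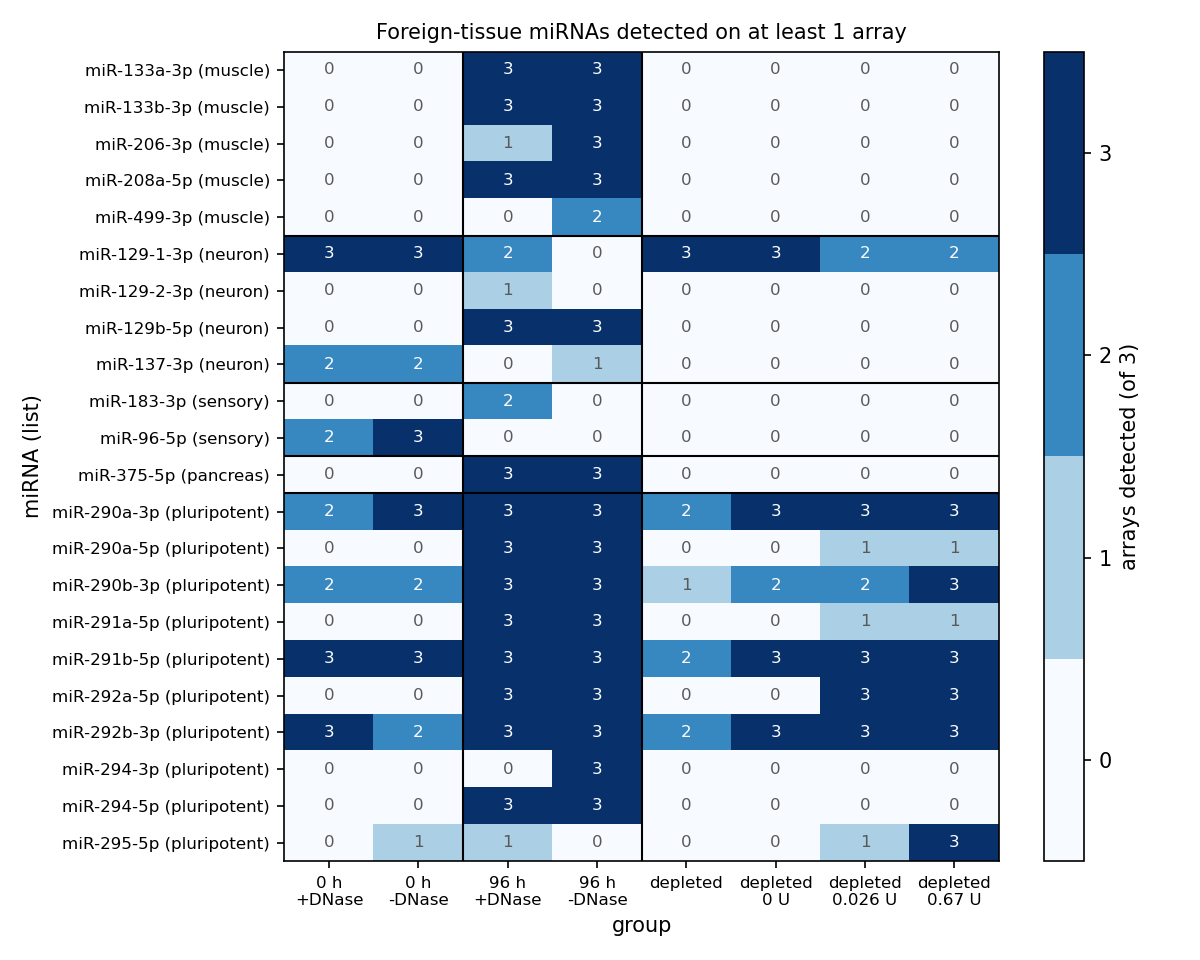
Number of arrays, of 3 in each group, on which each of the 22 miRNAs detected at least once was flagged as detected, ordered by tissue list (rows) and group (columns). Signals concentrate in both 96 h groups, while miR-96-5p and miR-137-3p are detected mostly at 0 h and a few miR-290 cluster members everywhere.

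The tissue itself read as liver. The hepatocyte miRNA miR-122-5p was detected on all 24 arrays at 6767, 11368 and 12125 units in 0 h DNase-treated RNA, and miR-192-5p and miR-194-5p, also abundant in liver, were detected on all 24 arrays as well. Of the red blood cell miRNAs, miR-451a was detected on 24 arrays and miR-144-3p on 7. The summed signal of 6 defining muscle markers (miR-1a-3p, miR-133a-3p, miR-133b-3p, miR-206-3p, miR-208a-3p and miR-499-5p) lay between -2.16 and 0.152 units at 0 h, between 14.5 and 40.3 units at 96 h, and between -3.36 and 0.81 units in depleted RNA. Of these 6, 3 were detected on no array, among them miR-1a-3p. The 4 pancreas markers were all undetected, and 4 of 5 neuron markers, 2 of 3 sensory markers and 4 of 5 pluripotent markers were detected on no array. Whether muscle attached to the tissue took part in the muscle signals was not tested.

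The number of foreign-tissue miRNAs detected per array rose from 5, 7 and 5 at 0 h with DNase to 15, 17 and 14 at 96 h, and from 6, 5 and 8 without DNase to 16, 16 and 16. The counts of fresh and stored arrays did not overlap in either DNase state. As means this was 5.67 ± 1.15 (SD, n = 3) against 15.3 ± 1.53 (SD, n = 3) with DNase, and 6.33 ± 1.53 (SD, n = 3) against 16 ± 0 (SD, n = 3) without. In percent of the 75 miRNAs these are 7.56, 20.4, 8.44 and 21.3, beside 15.9, 34.2, 16 and 33.1 percent of all 1881 miRNAs in the same groups. The detection counts are described and not tested, since the set was chosen with earlier results of these data known.

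In depleted RNA 5, 3 and 2 of the 75 were detected, and at 0 U RNase 4, 5 and 5. At 0.026 U the counts were 4, 9 and 6, and at 0.67 U they were 6, 7 and 9. The 0.026 U group overlapped the 0 U group and the 0.67 U group lay above it, and the highest count at 0.026 U came from mouse 9, the animal with conflicting dose labels. In percent of the 75 miRNAs the means were 4.44 in depleted RNA, 6.22 at 0 U, 8.44 at 0.026 U and 9.78 at 0.67 U, beside 10.8, 11.4, 16.6 and 18.9 percent of all 1881. No RNase array reached the lowest count of a 96 h array, and the same held over the whole array, where RNase arrays had up to 408 miRNAs detected and 96 h arrays at least 582. RIN at 0.67 U was about as low as at 96 h.

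**Figure D2:**
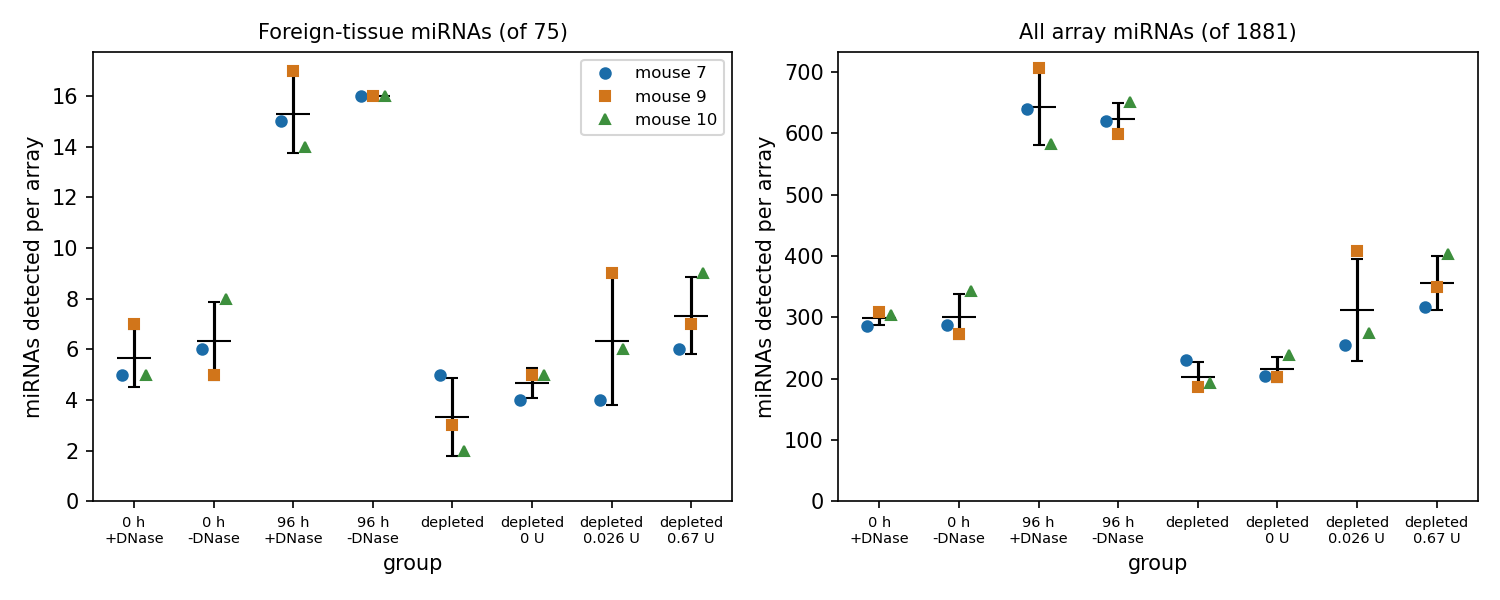
miRNAs detected per array in the 8 groups, for the 75 foreign-tissue miRNAs (left) and all 1881 miRNAs (right). Points are single arrays marked by mouse, horizontal ticks are group means and bars are SD (n = 3). The 96 h arrays (14 to 17 foreign-tissue miRNAs) stand above all other arrays (2 to 9).

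At 96 h, 13 of the 75 miRNAs were detected on 6 of 6 arrays (17.3%, against 25.8% of all 1881). Of these, 9 had been detected on 0 of 6 arrays at 0 h (12%, against 12.8% of all 1881), which was close to the share over the whole array. The 9 were miR-133a-3p, miR-133b-3p and miR-208a-5p from the muscle list, miR-129b-5p from the neuron list, miR-375-5p from the pancreas list, and miR-290a-5p, miR-291a-5p, miR-292a-5p and miR-294-5p from the pluripotent list. miR-375-5p was flagged as detected although neither of its probes was above background on any stored array. Only 3 of these 9 (miR-290a-5p, miR-291a-5p and miR-292a-5p) were detected on any RNase array, while 132 of the 241 such miRNAs over the whole array were.

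For testing, signals were put on a variance-stabilized log2 scale (glog2), on which a change of 1 is a 2-fold change for bright signals, and a call needed a limma adjusted p under 0.05 and a change of at least 1 in either direction. Only 17 of the 75 miRNAs, those detected on at least 5 of 24 arrays, were tested, and 58 were not. Several needed their 96 h arrays to pass this filter, namely miR-129b-5p, miR-133a-3p, miR-133b-3p, miR-208a-5p, miR-290a-5p, miR-291a-5p, miR-294-5p and miR-375-5p. miR-96-5p and miR-137-3p needed their 0 h arrays, and miR-295-5p its RNase arrays. They were in that sense chosen for a difference. Their p-values for it are a description and no separate support. The counts of calls describe these 17 and not the set of 75. Per the scaling, an intensity well above 0 sits lower on glog2 at 96 h than at 0 h: glog2 minus log2 intensity of miR-122-5p averaged 0.39 at 0 h and -1.36 at 96 h. Between such signals rises with storage are therefore smaller on glog2 than in intensity, and falls are larger. A small rise in intensity can turn into a fall. Near or below 0 units this does not hold, since small differences in intensity become large on glog2. Means of miR-294-5p of -0.616 units at 0 h with DNase and -0.558 units in depleted RNA were -2.24 and -1.17 on glog2. Changes that start from such signals cannot be read as folds. Where 1 group of a called change had no detected array, a fold is given as a lower bound (at least). It is the bright mean over that group's mean, both on glog2. Each dim array was set to its lowest detected signal or to the miRNA's own signal, whichever was higher.

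Storage with DNase gave 8 higher and 2 lower of the 17, beside 60.4% higher and 21.6% lower over all 631 tested miRNAs. Without DNase 9 were higher and 3 lower, beside 60.5% and 23.0%. The median change of the 17 was 1.21 with DNase and 1.37 without, below the medians of 2.47 and 2.16 over all tested miRNAs. The split depends on how arrays are scaled to each other. With DNase it was 14 higher and 1 lower under spike-in scaling, 7 and 4 under quantile normalization, 5 and 3 when each array was scaled to its 75th percentile over miRNAs detected on every array (detected-percentile scaling), and 4 and 4 when that percentile was taken over all miRNAs (all-percentile scaling). Without DNase the same settings gave 14 and 0, 8 and 4, 10 and 2, and 5 and 4. The median change over all tested miRNAs under these settings was 3.40, 1.19, 0.80 and 0.68 with DNase. Without DNase it was 3.28, 1.11, 1.02 and 0.35. Shares called over all tested miRNAs are not given for these settings, so whether the splits are particular to the 17 cannot be told.

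**Figure D3:**
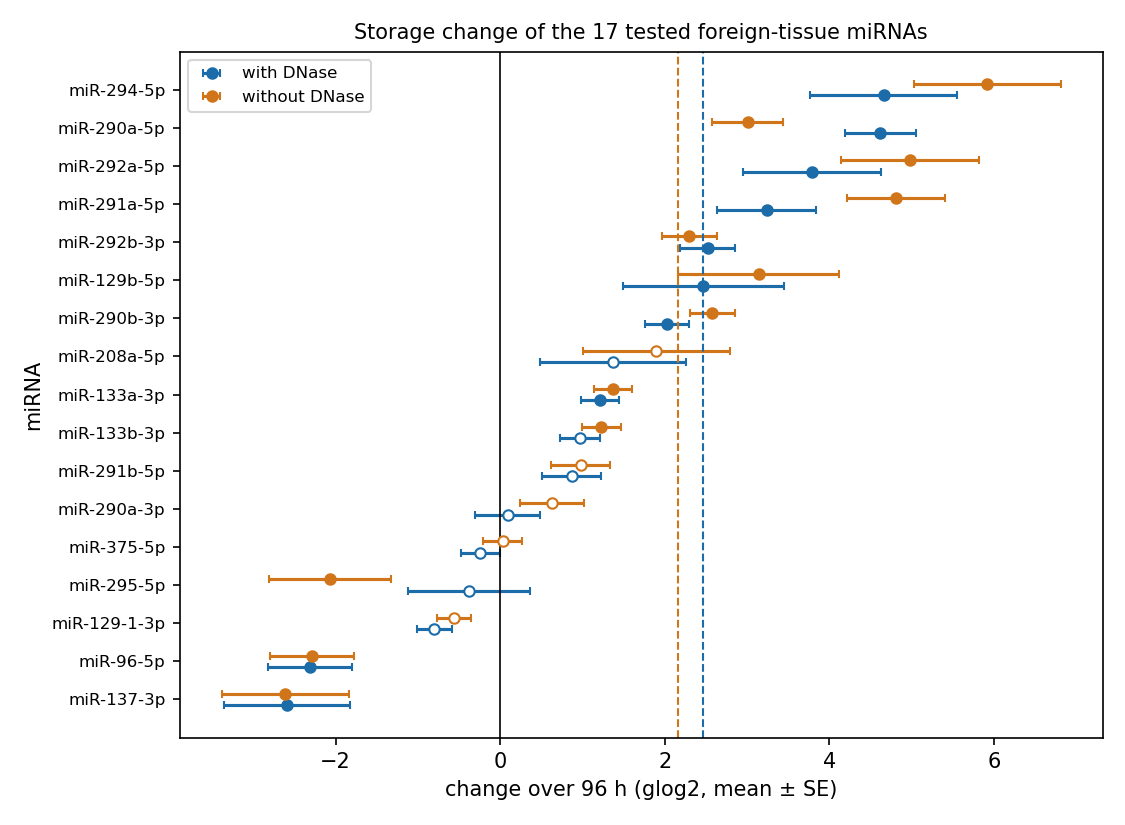
Change from 0 h to 96 h on the glog2 scale for each of the 17 tested foreign-tissue miRNAs, with DNase (blue) and without (orange). Points are means, bars are SE, filled points were called, and dashed lines are the medians over all 631 tested miRNAs (2.47 with DNase, 2.16 without).

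The largest signal of the set was that of miR-290a-5p, the minor arm of the first hairpin of the stem cell cluster. It read 1.5, 1.4 and 1.69 units at 0 h with DNase and 322, 264 and 80.2 units at 96 h. Without DNase it read 3.03, 2.07 and 2.61 units at 0 h and 92.7, 54 and 119 units at 96 h. All 6 stored arrays lay far above all 6 fresh ones. It rose by 4.62 ± 0.43 (SE) with DNase (limma adjusted p = 8.68e-09, higher in 3 of 3 mice), at least 24.6-fold, and by 3.01 ± 0.43 (SE) without (limma adjusted p = 2.09e-06, 3 of 3 mice), at least 8.05-fold. On its fresh arrays its own signal, though not flagged as detected, was the higher value, so these folds equal the fitted changes. All 4 of its probes were above background on 6 of 6 stored arrays and on 0 of 6 fresh arrays.

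The other 5p arms of the cluster that rose were weaker and more variable. miR-292a-5p read -0.283, -0.412 and -0.718 units at 0 h with DNase and 8.93, 8.41 and 19 units at 96 h. Its change was 3.79 ± 0.84 (SE, limma adjusted p = 0.000303, 3 of 3 mice), and 4.98 ± 0.84 (SE, limma adjusted p = 1.54e-05) without DNase, at least 2.37-fold and 3.79-fold. In RNA without DNase this miRNA went from -0.917, -0.622 and -0.397 units to 15.5, 13.9 and 28.5 units. With DNase the call was lost under detected-percentile scaling (0.72, limma adjusted p = 0.16) and all-percentile scaling (0.89, limma adjusted p = 0.0826). miR-294-5p read -0.39, -0.492 and -0.965 units at 0 h with DNase and 12.1, 2.4 and 56.7 units at 96 h, so that mouse 10 stood well above the others. Without DNase it read -0.694, -0.624 and -0.696 units at 0 h and 28.7, 27.8 and 51.9 units at 96 h, again with mouse 10 the highest. It rose by 4.66 ± 0.89 (SE, limma adjusted p = 6.69e-05) and by 5.92 ± 0.89 (SE, limma adjusted p = 4.18e-06). These rises were at least 2.67-fold and 6.93-fold, from fresh signals all below 0 units. miR-294-5p passed the filter only through its stored arrays.

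miR-291a-5p went from -0.0563, -0.221 and -0.486 units to 11.7, 5.24 and 37.3 units with DNase, a change of 3.24 ± 0.60 (SE, limma adjusted p = 4.94e-05), at least 2.79-fold. Without DNase it went from -0.518, -0.733 and -0.273 units to 23.5, 18.1 and 35.1 units, a change of 4.81 ± 0.60 (SE, limma adjusted p = 4e-07), at least 5-fold. Its near-identical sister miR-291b-5p was detected on 3 of 3 fresh arrays of both DNase states, at 2.34, 2.58 and 2.37 units with DNase, and read 17.1, 21.7 and 17.7 units at 96 h. Without DNase it went from 2.07, 2.73 and 2.36 units to 18.2, 17.5 and 20.3 units. Its changes of 0.87 ± 0.36 and 0.98 ± 0.36 (SE) stayed under the size needed for a call.

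The probes of a single miRNA did not always move together. miR-291a-5p, miR-292a-5p and miR-294-5p each have 4 probes, and in each case 1 of the 4 was above background on 0 of 6 stored arrays while the other 3 were above it on 5 or 6. miR-183-3p, the minor arm of a sensory miRNA, was flagged as detected on 2 of 3 stored arrays with DNase, and 3 of its 4 probes were above background on 0 of 6 stored arrays. miR-290a-3p, the main arm of miR-290a, was above background with all 4 probes on 6 of 6 stored arrays, at 17.2, 13.2 and 15.6 units with DNase and 16.8, 14.9 and 16.6 units without. At 0 h it read 3.15, 4.65 and 3.49 units with DNase and 3.9, 1.03 and 4.33 units without. Fresh and stored arrays did not overlap, but its changes on glog2 were 0.09 ± 0.39 (SE, limma adjusted p = 0.822) and 0.63 ± 0.39 (SE, limma adjusted p = 0.13), neither called.

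The minus-strand products rose as well. miR-290b-3p went from 3.65, 3.91 and 3.67 units to 74.4, 59.4 and 55.8 units with DNase, and from 1.97, 3 and 3.3 units to 63.8, 57.8 and 76.7 units without. The 3 stored arrays of a group lay close together. The changes were 2.03 ± 0.27 (SE, limma adjusted p = 9.51e-07) and 2.58 ± 0.27 (SE, limma adjusted p = 4.78e-08). With DNase the call was lost under all-percentile scaling (0.68) and quantile normalization (0.35, limma adjusted p = 0.409). miR-292b-3p went from 1.93, 3.7 and 1.89 units to 72, 56.9 and 57.3 units with DNase, a change of 2.52 ± 0.33 (SE, limma adjusted p = 5.75e-07), and from 3.81, 3.29 and 3.84 units to 67.2, 60.8 and 77.7 units without, a change of 2.30 ± 0.33 (SE, limma adjusted p = 2.04e-06). The latter call was lost under all-percentile scaling (0.85) and quantile normalization (0.87). The complementary plus-strand and minus-strand miRNAs were thus both higher at 96 h, in 3 of 3 mice each.

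miR-129b-5p, which lies antisense to the neural miR-129-2, read -0.561, 0.183 and 0.596 units at 0 h with DNase and 14, 10.1 and 6.25 units at 96 h. On arrays without DNase it went from -0.981, 0.0199 and 1.57 units to 11.8, 16.2 and 12.7 units. It rose by 2.47 ± 0.98 (SE, limma adjusted p = 0.0242) with DNase and by 3.14 ± 0.98 (SE, limma adjusted p = 0.00566) without, at least 2.06-fold and 2.45-fold. It passed the filter only through its stored arrays. Its 2 probes were above background on 5 and 3 of 6 stored arrays. The call was lost without mouse 7 (change 1.39 with DNase and 1.84 without) and without mouse 9 (2.83 and 3.28). It was also lost under all-percentile scaling (0.64 and 0.80) and, with DNase, under detected-percentile scaling (0.48). Its complement miR-129-2-3p was detected on 1 of 24 arrays. miR-129-1-3p, another minor arm of miR-129, was detected on 18 arrays, with its probes above background on 0 of 6 arrays at either time. It read 2.14, 2.55 and 2.46 units at 0 h and 6, 6.16 and 2.86 units at 96 h with DNase, and 2.02, 2.15 and 2.35 against 5.1, 4.65 and 5.4 units without. Its intensity was thus higher at 96 h while its changes on glog2 were -0.80 ± 0.21 and -0.56 ± 0.21 (SE), neither of the size needed for a call. In depleted RNA, with and without RNase, it lay between 1.75 and 3.02 units.

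In the muscle list, miR-133a-3p and miR-133b-3p, which are nearly identical in sequence and cannot be told apart with confidence by hybridization, appeared together. miR-133a-3p read 1.19, 0.762 and 0.789 units at 0 h with DNase and 14.2, 10.8 and 10.1 units at 96 h, and miR-133b-3p went from 1.04, 0.938 and 0.995 units to 12.8, 9.3 and 8.9 units. Without DNase miR-133a-3p went from 0.661, 0.542 and 1.22 units to 11.8, 9.65 and 13.7 units. Neither was detected on a fresh array, and both were detected on all 6 stored arrays. For miR-133b-3p the first probe was above background on 6 of 6 stored arrays and the second on only 1. For miR-133a-3p the counts were 6 and 5. Both passed the filter only through their stored arrays, so their p-values describe a difference for which they were chosen. miR-133a-3p rose by 1.21 ± 0.23 (SE, limma adjusted p = 6.56e-05) with DNase and by 1.37 ± 0.23 (SE, limma adjusted p = 1.67e-05) without, at least 2.25-fold and 2.27-fold. miR-133b-3p rose by 1.23 ± 0.24 (SE, limma adjusted p = 6.94e-05) without DNase, at least 2.14-fold, while its change with DNase, 0.97 ± 0.24, was just under the limit. Without DNase miR-133b-3p went from 0.69, 0.67 and 1.16 units to 10.8, 8.87 and 12.7 units. Under spike-in scaling the changes of miR-133a-3p were 3.35 and 3.52. Its call was lost under quantile normalization with DNase (1.23, limma adjusted p = 0.142) and without (1.41, limma adjusted p = 0.0976), under all-percentile scaling with DNase (0.31) and without (0.55), and under detected-percentile scaling with DNase (0.58). The call of miR-133b-3p was lost under all-percentile scaling (0.34).

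miR-208a-5p, the minor arm of a heart miRNA that is encoded within a cardiac myosin gene, read 0.22, 0.595 and 1.27 units at 0 h with DNase and 18.4, 3.03 and 17.3 units at 96 h. The arrays without DNase went from 0.603, 0.982 and 1.5 units to 19.1, 18.2 and 22.7 units. All stored arrays were detected, but the change of 1.37 ± 0.89 (SE, limma adjusted p = 0.152) did not pass, and neither did the change of 1.90 ± 0.89 (SE, limma adjusted p = 0.0516) without DNase. miR-375-5p, the minor arm of the islet miRNA, had a faint signal of 3.53, 3.31 and 3.07 units on the stored arrays with DNase, after 0.756, 1.05 and 0.876 units at 0 h. Its arrays without DNase went from 0.771, 0.449 and 0.993 units to 3.48, 3.03 and 4.2 units. Both of its probes were above background on 0 of 6 stored arrays. The first of them averaged -0.307 units at 96 h with DNase and -0.547 units without. Its changes on the glog2 scale were -0.24 ± 0.24 and 0.03 ± 0.24 (SE). The main arms of the same hairpins, miR-208a-3p and miR-375-3p, were detected on no array.

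A contrasting pattern was seen for miR-96-5p of the sensory cluster and the neural miR-137-3p, which were detected in fresh tissue and on 0 and 1 of 6 stored arrays. miR-96-5p read 2.23, 2.08 and 7.71 units at 0 h with DNase and 0.7, 0.925 and 3.04 units at 96 h. Without DNase it went from 1.84, 2.22 and 11.1 units to 0.767, 1.45 and 3.07 units. It was lower at 96 h in 3 of 3 mice in both DNase states, although the stored array of mouse 10 lay above the fresh arrays of mice 7 and 9. The changes were -2.31 ± 0.51 (SE, limma adjusted p = 0.000319) and -2.29 ± 0.51 (SE, limma adjusted p = 0.000348), at least 4.14-fold and 4.45-fold lower. Under spike-in scaling they were -1.14, still called, and -1.09, not called.

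miR-137-3p read 1.36, 1.91 and 5.82 units at 0 h with DNase and -0.613, -0.5 and 4.41 units at 96 h. Without DNase it went from 1.62, 2.14 and 8.05 units to -0.0674, 0.0308 and 3.27 units. Its changes were -2.59 ± 0.77 (SE, limma adjusted p = 0.00397) with DNase and -2.61 ± 0.77 (SE, limma adjusted p = 0.00372) without, lower in 3 of 3 mice in both, and neither was called under spike-in scaling (-0.54 and -0.96). With DNase, where no stored array was detected, the fall was at least 3.02-fold, and the call was also lost without mouse 9 (-2.20). Mouse 10 had the highest fresh signal of both miRNAs with and without DNase. On the fresh arrays these were also the only 2 of the 75 miRNAs with a probe above background, on both arrays of mouse 10 and on no array of the other mice. In depleted RNA both were undetected on all 12 arrays.

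**Figure D4:**
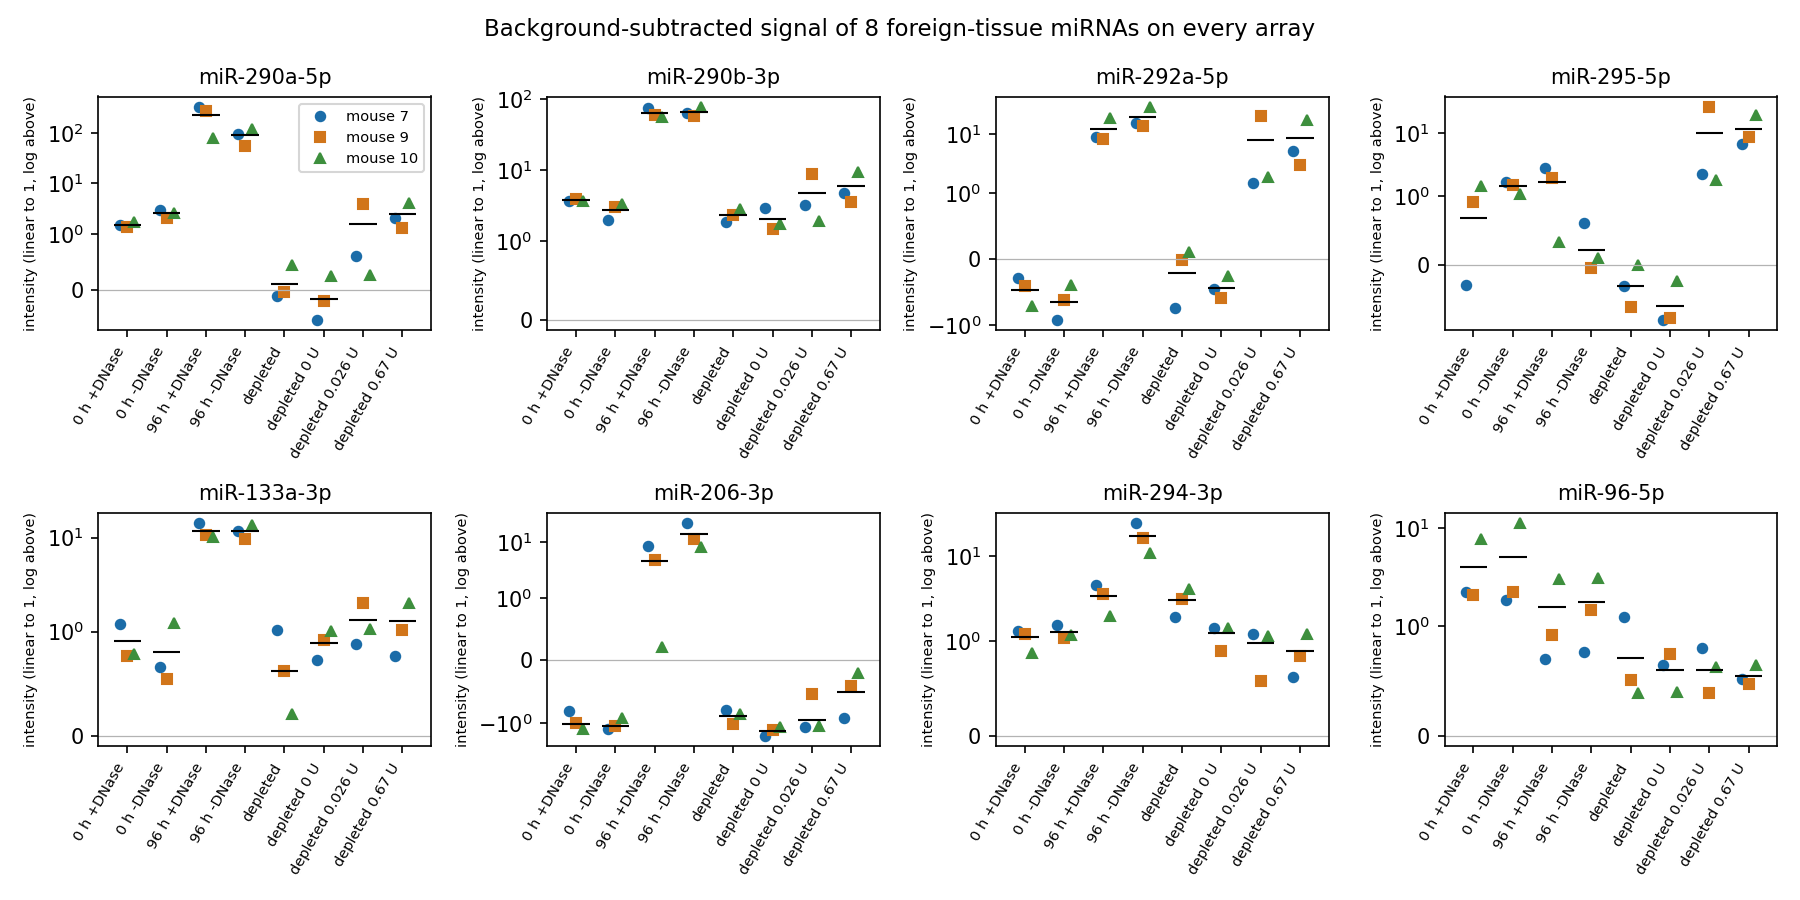
Background-subtracted intensity of 8 foreign-tissue miRNAs on each of the 24 arrays, on an axis that is linear up to 1 unit and logarithmic above. Points are single arrays marked by mouse and horizontal lines are group means. miR-290a-5p reaches 322 units at 96 h, miR-295-5p is highest on the RNase arrays, miR-294-3p is highest at 96 h without DNase, and miR-96-5p is highest at 0 h.

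Omitting DNase made no difference that was called for any of the 17 tested miRNAs, at 0 h (0% of all tested miRNAs called) or at 96 h (6.18% higher and 4.60% lower over all tested miRNAs). At an unadjusted p under 0.05 the counts were 0 at 0 h and 1 at 96 h, the latter being miR-290a-5p with a change of -1.03 ± 0.43 (SE, limma adjusted p = 0.14). The difference between the storage changes without and with DNase ranged from -1.69 (miR-295-5p) to 1.57 (miR-291a-5p) over the 17, with a lowest limma adjusted p of 0.208 for miR-290a-5p.

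Of the miRNAs detected on too few arrays to be tested, 3 picked after viewing had stronger signals at 96 h without DNase. Among tested miRNAs the 96 h mean was also higher without DNase for some, as for miR-294-5p (36.1 against 23.7 units). It was lower for others, as for miR-290a-5p (88.6 against 222 units). miR-294-3p, a main arm with the seed of the stem cell family, read 24.1, 16.4 and 10.9 units at 96 h without DNase and 4.62, 3.55 and 1.98 units with DNase. It was detected on these 3 arrays and on no other, with all 3 of its probes above background on each. miR-206-3p, a skeletal muscle miRNA, read 21.6, 11.6 and 8.34 units without DNase and 8.58, 4.81 and 0.221 units with DNase at 96 h, against -1.31 to -0.806 units on fresh DNase-treated arrays. miR-499-3p, the minor arm of a muscle miRNA, read 11.1, 9.86 and 5.74 units without DNase and -0.0491, 1.76 and -1.24 units with DNase. It was detected on 2 of 3 of these arrays without DNase and on 0 of 3 with DNase. The groups with and without DNase did not overlap for miR-294-3p and miR-499-3p. They overlapped for miR-206-3p, although each of the 3 was higher without DNase in 3 of 3 mice.

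In depleted RNA the signals of the set were close to background. Against 0 h DNase-treated RNA 0 of the 17 were higher and 4 lower, beside 5.39% higher and 24.4% lower over all tested miRNAs. Of the 4, miR-129b-5p, miR-208a-5p and miR-290a-5p were detected in neither group, so no fold is given. The fourth, miR-137-3p, read -0.533, -0.892 and -1.36 units after depletion, a change of -5.04 ± 0.77 (SE, limma adjusted p = 1.89e-05), at least 1.64-fold lower. Without mouse 9 only 2 of the 17 were called. Under spike-in scaling 0 were called, miR-137-3p included (-1.20, limma adjusted p = 0.152), and under detected-percentile scaling 8 were higher and 1 lower, the latter being miR-137-3p (-1.24). The median change over all tested miRNAs was 0.30 under detected-percentile scaling, against -0.17 under vsn. The calls of miR-129b-5p and miR-208a-5p were lost under all 4 scalings tried in place of vsn, and that of miR-290a-5p under the detected-percentile and spike-in ones. Incubation at 0 U gave no call among the 17 (limma, 0 at an unadjusted p under 0.05), beside 0.158% higher and 1.58% lower over all tested miRNAs.

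RNase digestion of depleted RNA gave 5 higher and 0 lower of the 17 against 0 U, beside 44.7% higher and 0% lower over all tested miRNAs. The medians were 0.32 over the 17 and 0.69 over all. Under detected-percentile scaling the split was 3 higher and 6 lower, under all-percentile scaling 3 and 3, and under quantile normalization 4 and 2. The median change over all tested miRNAs was 0.00 under each of these settings. Depletion and storage with DNase share the 0 h DNase-treated arrays as controls, while RNase was set against the 0 U arrays. The largest called change with RNase among the miRNAs detected there was that of miR-295-5p, a minor arm of the stem cell cluster. It read -0.787, -0.762 and -0.228 units at 0 U, 2.27, 26.4 and 1.81 units at 0.026 U, and 6.82, 8.82 and 19.5 units at 0.67 U. All 6 RNase arrays lay above the 0 U arrays, and the change was 5.18 ± 0.64 (SE, limma adjusted p = 1.3e-06, 3 of 3 mice), at least 4.1-fold. In stored tissue the same miRNA read only 2.74, 1.91 and 0.327 units with DNase and 0.608, -0.0409 and 0.0993 units without. Without DNase it was called lower than at 0 h, where it read 1.68, 1.49 and 1.06 units (-2.07 ± 0.74, SE, limma adjusted p = 0.0136, at least 2.39-fold). These signals were near background: 1 of 3 fresh and 0 of 3 stored arrays were detected. Each of its probes was above background on 0 of 6 arrays at 0 h and at 96 h. The call was lost without mouse 7 at a change of -2.09. That call was also lost under spike-in scaling (-0.45, limma adjusted p = 0.509) and detected-percentile scaling (-0.39, limma adjusted p = 0.363).

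miR-292a-5p was the only member called higher with both storage and RNase that was detected on all 6 arrays of each. It read -0.452, -0.586 and -0.262 units at 0 U, 1.47, 20.4 and 1.92 units at 0.026 U and 5.15, 3.01 and 17.3 units at 0.67 U, a change of 3.96 ± 0.73 (SE, limma adjusted p = 0.000115), at least 3.03-fold. Its probes behaved differently in the 2 treatments. On stored arrays 3 of the 4 probes were above background, on 6, 5 and 6 of 6 arrays, while on RNase arrays 1 probe was, on 5 of 6, and the other 3 on 0 of 6. For miR-295-5p the probes also differed: all 4 were above background on 3 or 4 of 6 RNase arrays and on 0 of 6 stored arrays.

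miR-290a-5p was called higher with RNase (1.62 ± 0.37, SE, limma adjusted p = 0.00107), though only at least 1.19-fold. It read 0.607, 3.89 and 0.265 units at 0.026 U and 2.04, 1.33 and 4.07 units at 0.67 U, and was detected on 2 of 6 RNase arrays. Under spike-in scaling the call was lost (0.94, limma adjusted p = 0.15). miR-208a-5p and miR-294-5p were called as well, but both were undetected on all 9 arrays of this comparison, so no fold is given. Both calls were lost under the same 4 scalings, and that of miR-294-5p without mouse 7 and without mouse 9. For miR-290a-5p, miR-291a-5p, miR-292a-5p and miR-295-5p the highest array at 0.026 U was that of mouse 9 and the highest at 0.67 U that of mouse 10. With the doses of mouse 9 taken from the titles, 6 of the 17 were called.

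A property of the sequences that the choice by number did not use was then described, after the values had been seen. Among the 62 miRNAs with a sequence, the longest unbroken run of G and C letters (any mix of G and C, read along the mature strand) was 4 to 8 bases in the 12 that were detected on 6 of 6 stored arrays, with a median of 5.5, and had a median of 3 in the other 50. None of 37 with a run of up to 3 bases, 6 of 17 with 4 or 5 and 6 of 8 with 6 or more were detected on all 6 stored arrays. The 8 are not independent sequences, since complementary strands share their G and C runs. Among them miR-290a-5p pairs with miR-290b-3p over 21 bases, miR-290a-3p with miR-290b-5p over 22, and miR-292a-5p with miR-292b-3p over 19. Over the 1608 array miRNAs with a sequence the shares in the same classes were 15%, 36.9% and 52.3%. At 0 h the shares were taken on another basis, detection on 3 of 3 arrays with DNase, and were 13.3%, 15.4% and 20.8%. This criterion is looser than 6 of 6 arrays over both DNase states. Median G and C content was 50% in the 12 miRNAs and 41.9% in the 50.

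Within the seed family printed first, miR-290a-5p and miR-292a-5p hold a run of 6 and were detected on 6 of 6 stored arrays, while miR-293-5p with the same seed holds a run of 1 and was detected on none. The exceptions with a run of 6 and no detection at 96 h were miR-290b-5p and miR-292b-5p. The 3 untested miRNAs picked for stronger signals without DNase had short runs, of 2 in miR-206-3p, 3 in miR-294-3p and 2 in miR-499-3p. This is a description of letters and does not show what hybridized to the probes.

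**Figure D5:**
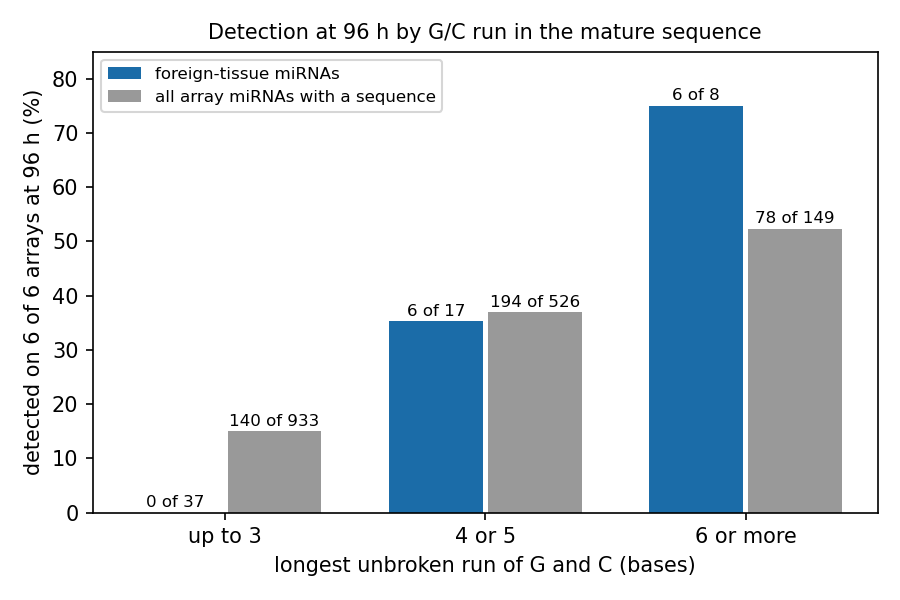
Percent of miRNAs detected on 6 of 6 arrays at 96 h by the longest run of G and C in the mature sequence, for the foreign-tissue miRNAs (blue) and all array miRNAs with a sequence (grey), with counts above the bars. The share rises from 0% to 75% in the former and from 15% to 52.3% in the latter. Complementary miRNAs, which share their runs, are counted separately.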

How the data were processed

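Liver RNA of 3 mice was hybridized to 24 Agilent mouse miRNA arrays. Per the file headers the authors extracted the spots with Agilent Feature Extraction 10.10.1.1. The scanner output they deposited gives each spot's intensity after background subtraction, without scaling across arrays, and flags for detection. Their deposited matrix is on a log2 scale after variance stabilization (vsn) and served as an alternative.

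The signal of a miRNA (30 spots over 2 to 4 probes for the miRNAs described) was the total gene signal where flagged as detected, and otherwise the sum over its probes. vsn was rewritten in Python 3.11.15 with numpy 2.4.6 and differed from the deposited values by 0.0956 (SD). miRNAs detected on at least 5 of 24 arrays were tested, which left 631. Comparisons used limma 3.58.1 and R 4.3.3 (8 group means, trend, Benjamini-Hochberg adjustment over the 631, two-sided). The methods were tested on simulated data. A miRNA was called at an adjusted p under 0.05 and a change of at least 1. Standard errors rest on 1 spread per miRNA, pooled over the 8 groups and moderated by limma, without pairing by mouse. They are not the spread between the 3 mice of the compared groups. The number of arrays limits the precision.

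Arrays were grouped by the labels. Numbers pair arrays because they name the same mouse. After group means were removed the correlation averaged 0.0914 within mice and -0.0449 between mice, and a block for the mouse was an alternative. Values per array are given, in the groups a comparison turns on, for miRNAs detected on all 3 arrays of a group, and every called miRNA is named. The miRNAs with signals in a single DNase state, the probes and the sequence runs were chosen after their values were seen. The set of miRNAs and all lists were chosen with earlier results of these data known. Sequences are RefSeq, GRCm38.p6. The array design uses another build, so positions are RefSeq's alone.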

Additional observations from a re-analysis of the deposited data

Results flagged for a closer look

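The storage change of miR-294-3p differed between RNA without and with DNase by 1.90 ± 0.44 (SE) on the glog2 scale, a limma adjusted p of 0.0354, when all 1881 miRNAs were tested with no filter on detection. The 2 storage effects were set against each other by an interaction term. The miRNA was detected on 3 arrays and is outside the 631 tested in the report.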

How the results depend on the processing

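Among the 31 called changes of single miRNAs, 322 of 405 values under the alternatives kept the call, 83 lost it, and 0 were called in the other direction. With a normexp background correction and an offset of 50 units, all 31 lost the call, and the counts of called miRNAs were 0 for storage with and without DNase, depletion and RNase. Of the 75 miRNAs, 4 exceeded 50 units on any array. The methods' exact rank test also gave 0 in these comparisons. With 3 arrays against 3 its smallest p is 0.1, so no call was possible, and for RNase, with 3 against 6, it is 0.0238, with 6 miRNAs under an unadjusted p of 0.05 and 0 after adjustment. With no filter on detection, 47 of all 75 were called for storage with DNase (19 higher and 28 lower) and 42 without (17 higher and 25 lower), so that more were lower than higher, beside 34.9% higher and 29.7% lower, and 32.8% and 27.6%, of all 1881. Of these lower calls only 2 and 3 belonged to the 17 tested miRNAs. The others belonged to the 53 miRNAs detected on no array, at intensities near background. The same setting gave 2 higher for DNase omission at 96 h, beside 5.16% higher of all 1881. For depletion it gave 3 higher and 5 lower, beside 5.32% and 9.99%. For the 0 U incubation it gave 1 lower, beside 1.91%. Scaling to the 75th percentile of miRNAs detected on every array gave 2 calls for DNase omission at 96 h, 9 for depletion (8 higher) and 9 for RNase (6 lower). Taken over all miRNAs it gave 1 for DNase omission at 96 h and 1 for the 0 U incubation. Spike-in scaling gave 0 for depletion. Shares called over all tested miRNAs are not given for these scalings. The filter on detection on every array of at least 1 group gave 1 for DNase omission at 96 h. Leaving out 1 mouse gave 9 to 10 calls for storage with DNase, 10 to 12 without, 0 to 1 for DNase omission at 96 h (1 without mouse 10), 2 to 3 for depletion (2 without mouse 9) and 4 to 6 for RNase. The replicate block for the mouse gave 10 calls for storage with DNase, 12 without, 5 for depletion and 5 for RNase, and each of the 31 calls held under it.

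The calls lost when a mouse was left out were those of miR-129b-5p (storage without mouse 7 or 9, depletion without 9), miR-137-3p (storage with DNase, without 9), miR-295-5p (storage without DNase, without 7), miR-208a-5p (depletion, without 10), miR-290a-5p (depletion, without 7 or 9) and miR-294-5p (RNase, without 7 or 9). The median storage change of all tested miRNAs with DNase was 2.47 in the report, 3.40 under spike-in scaling, 0.80 with the 75th percentile of miRNAs detected on every array and 0.68 with that of all.

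The mean number of foreign-tissue miRNAs detected per array depends on what counts as detection. At 1 fixed level for all arrays it was 15.7 and 15.7 at 0 h with and without DNase, 23.3 and 22.3 at 96 h, 13.3 in depleted RNA, and 10, 12 and 14.7 in the order of rising RNase. When at least 1 probe had to be well above background it was 0.667 and 0.667 at 0 h, 11.3 and 14.3 at 96 h, 0 in depleted RNA, and 1.33, 2.33 and 4 at the 3 doses. Both rules kept the 96 h means above all others. Weak signals limit what can be told from background.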
